A study of Mus musculus with 2 samples.

Results

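The clustered histone genes of the mouse were described in total RNA of the left ventricle after infarction. They were taken by symbol, as every gene whose name begins with Hist1h, Hist2h, Hist3h or Hist4h, which gave 69 of the 24542 gene symbols in the deposited transcript table. The knockout was of NRK-2, the muscle nicotinamide riboside kinase encoded by Nmrk2, in male C57BL/6 mice. Littermates with the genotype label Control were the comparison, and both genotypes had their proximal left anterior descending coronary artery tied off for good and were sampled at 7 days. RNA came from remote left ventricular muscle, without the scar and the border area. The sources used here do not give how the knockout was made or the age of the mice.

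Most genes of these clusters are replication-dependent. They are transcribed while DNA is copied in S phase, and they supply the core histones H2A, H2B, H3 and H4, around which DNA is wound, and the linker histone H1, which sits where DNA enters and leaves the nucleosome. Their mRNAs end in a stem-loop in place of a poly(A) tail, which the stem-loop binding protein holds, so libraries made from total RNA can count them where poly(A) selection would lose most of them. Histone mRNA from these genes is a mark of cells that copy their DNA, while most muscle cells of the adult heart no longer divide. A few clustered genes also give polyadenylated mRNA in cells that have stopped dividing.

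The stem-loops are shown because they mark the kind of mRNA that this family makes and that the library method lets through. The letters of the histone stem-loop, searched in GENCODE M21 transcripts (GRCm38, the same assembly as mm10), were found in 44 of the 69 members. Over all genes, 105 of 55450 (0.189%) held them. Whether each transcript model reaches the end of its mRNA was not checked, so a member without a match may still have a stem-loop. In 40 members the stem-loop lay inside the deposited transcript with the most reads, and in 39 of these it ended within 10 bases of that transcript's end, with a median of 5 bases. The 44 members shared 6 distinct stem-loops of 16 bases. An example of each follows, read 5′ to 3′ on the gene's strand as DNA, with the 6-base arms in capitals and the loop and 5 flanking bases on each side in lower case.
Hist1h1c, the letters of 26 members (H1, H2A, H2B, H3): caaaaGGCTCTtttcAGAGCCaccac
Hist1h4h, the letters of 7 members (H4): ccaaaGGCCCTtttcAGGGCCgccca
Hist1h2bb, the letters of 6 members (H1, H2B, H3): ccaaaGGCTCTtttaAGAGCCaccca
Hist2h4, the letters of 2 members (H4): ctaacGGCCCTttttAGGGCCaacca
Hist1h4b, the letters of 2 members (H4): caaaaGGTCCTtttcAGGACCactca
Hist2h2ac, the letters of 1 member (H2A): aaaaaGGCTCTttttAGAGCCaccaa
Their 16-base cores lie at chr13:23739512-23739527 (plus strand), chr13:23531458-23531473 (plus), chr13:23747203-23747218 (plus), chr3:96262939-96262954 (minus), chr13:23757366-23757381 (plus) and chr3:96220418-96220433 (minus), in the order shown. The H4 genes thus differed from the other classes in the arms, and the variants within a class differed mostly in the last base of the loop.

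Promoters of 62 of the 69 members were found in RefSeq (GRCm38.p6) by gene ID. A window from 250 bases before to 50 bases after the gene start was searched on both strands for short motifs that textbooks give for histone promoters, and each motif was counted by itself, also where matches of different motifs overlap. CCAAT was present in 53 of 62 members (85.5%), against 37.4% of all promoters, and in all members of H1, H2A, H2B and H3 but only 3 of 12 of H4. TATAA was present in 50 of 62 (80.6%), against 24.9% of all promoters. The octamer ATTTGCAT was found in 7 of 18 H2A and 7 of 16 H2B promoters and in 0 of the other classes, against 1.74% of all promoters. In 10 pairs an H2A and an H2B gene start 164 to 281 bases apart on opposite strands, so their windows overlap. A single site can then count for both partners, and the H2A and H2B counts of each motif are not independent. AAACACA was found in 5 of 6 H1 promoters (7.18% of all promoters) and GGTCC in 11 of 12 H4 promoters (45.5% of all). The 150 bases before the start of an H2A, an H3 and an H4 gene are printed to show this difference between classes, with matches to CCAAT (or ATTGG, its other strand), TATAA and GGTCC in capitals.
Hist1h2an, H2A, chr13:21787249-21787398, minus strand: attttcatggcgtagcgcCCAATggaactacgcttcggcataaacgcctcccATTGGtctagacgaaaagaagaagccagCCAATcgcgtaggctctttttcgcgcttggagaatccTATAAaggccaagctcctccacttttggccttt
Hist1h3h, H3, chr13:21717478-21717627, plus strand: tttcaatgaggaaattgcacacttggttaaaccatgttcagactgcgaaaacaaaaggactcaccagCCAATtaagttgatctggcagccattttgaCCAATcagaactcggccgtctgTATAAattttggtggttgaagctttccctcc
Hist1h4k, H4, chr13:21750554-21750703, minus strand: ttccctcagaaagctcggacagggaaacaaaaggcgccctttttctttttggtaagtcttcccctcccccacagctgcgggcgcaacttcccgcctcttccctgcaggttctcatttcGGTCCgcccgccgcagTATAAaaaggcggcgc
The H2A window holds 3 CCAAT matches and the H3 window 2, while the H4 window holds none and has a GGTCC that begins 32 bases before the start.

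Each genotype has 1 sample in the labels and 3 numbered libraries in the table, called KO 1 to 3 and control 1 to 3 here. KO libraries held from 26975513 to 33086384 counted reads and control libraries from 22377348 to 22831189. Whether the 3 libraries are separate animals is not stated, so p-values measure only how these libraries vary, which may be technical. The targeted gene did not follow its label in KO 1: Nmrk2 had 808, 9 and 0 reads in KO 1 to 3, against 308, 270 and 118 reads in control 1 to 3. Because of this, results are also given without the library labelled KO 1. Of the 8 cardiomyocyte markers examined (among them Myh6, Tnnt2 and Myl2) all had reads and their summed level was 21007 to 36090 CPM in KO and 41026 to 69367 CPM in control libraries. Levels in CPM are read counts scaled by library total and a TMM factor, and they follow a gene or sum from library to library. Levels of different genes are compared as FPKM, which allows for transcript length.

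The family held 6 H1, 19 H2A, 19 H2B, 12 H3 and 13 H4 genes. By cluster, 55 lay in Hist1 on chromosome 13 (21715713 to 51203066 in mm10), 10 in Hist2 on chromosome 3 (96219916 to 96270192), 3 in Hist3 on chromosome 11 (58948911 to 58955192) and 1, Hist4h4, on chromosome 6 (136803993 to 136804431). All Hist1 members other than Hist1h2al, which lies apart at 51200084 to 51203066, ended by 23934913. Hist1h2al and the pseudogene Hist3h2bb-ps have non-coding transcript entries and were placed in their class by symbol. At least 20 reads over the 6 libraries were counted for 65 members. Hist1h2ba, the testis H2B gene, had 47 reads, the fewest of these, and the next member below the limit was Hist1h2br with 13 reads. Under the limit were also Hist1h1t, the testis linker histone gene, with 11 reads, Hist1h4m with 5 and Hist1h2aa, the testis H2A gene, with 0 reads in all, where a count of 0 allows up to 3 reads. The 64 members with enough reads for the test are those with at least 20 reads other than Hist1h2ba. Along the length-scaled FPKM the tested members spread widely, from 1.03 (Hist1h2al) to 167 (Hist1h4h) as a mean over the 6 libraries. Above 100 FPKM were Hist1h4h, Hist1h4d, Hist1h4n and Hist1h4c for H4, Hist1h1c for H1, Hist1h2bc for H2B and Hist2h2aa1 for H2A. The highest H3 gene, Hist1h3e, had 36.9 FPKM.

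Histone reads made up a larger share of KO 1 and KO 2 than of KO 3 and the control libraries. The share was 0.172%, 0.151% and 0.0985% of counted reads in KO 1 to 3, against 0.103%, 0.0965% and 0.102% in control 1 to 3. The 95% Clopper-Pearson intervals, which cover counting error only, ran from 0.170 to 0.173% in KO 1, from 0.150 to 0.152% in KO 2 and from 0.0974 to 0.0997% in KO 3. Those of the control libraries lay between 0.0952 and 0.105%. Scaled, the family sum was 1692, 1398 and 971 CPM in KO 1 to 3, against 1135, 1060 and 943 CPM in control 1 to 3. KO 1 and KO 2 lay above all control libraries and KO 3 lay within their range. The means were 1354 ± 363 CPM in KO and 1046 ± 96.6 CPM in control (SD, n = 3 libraries each). Their ratio was 1.29, a log2 ratio of 0.37 beside a spread within genotypes of 0.30. Without KO 1 the log2 ratio was 0.18 and without KO 3 it was 0.56. In bulk RNA like this, fewer cells of a type and less RNA per cell cannot be told apart.

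**Figure D1:**
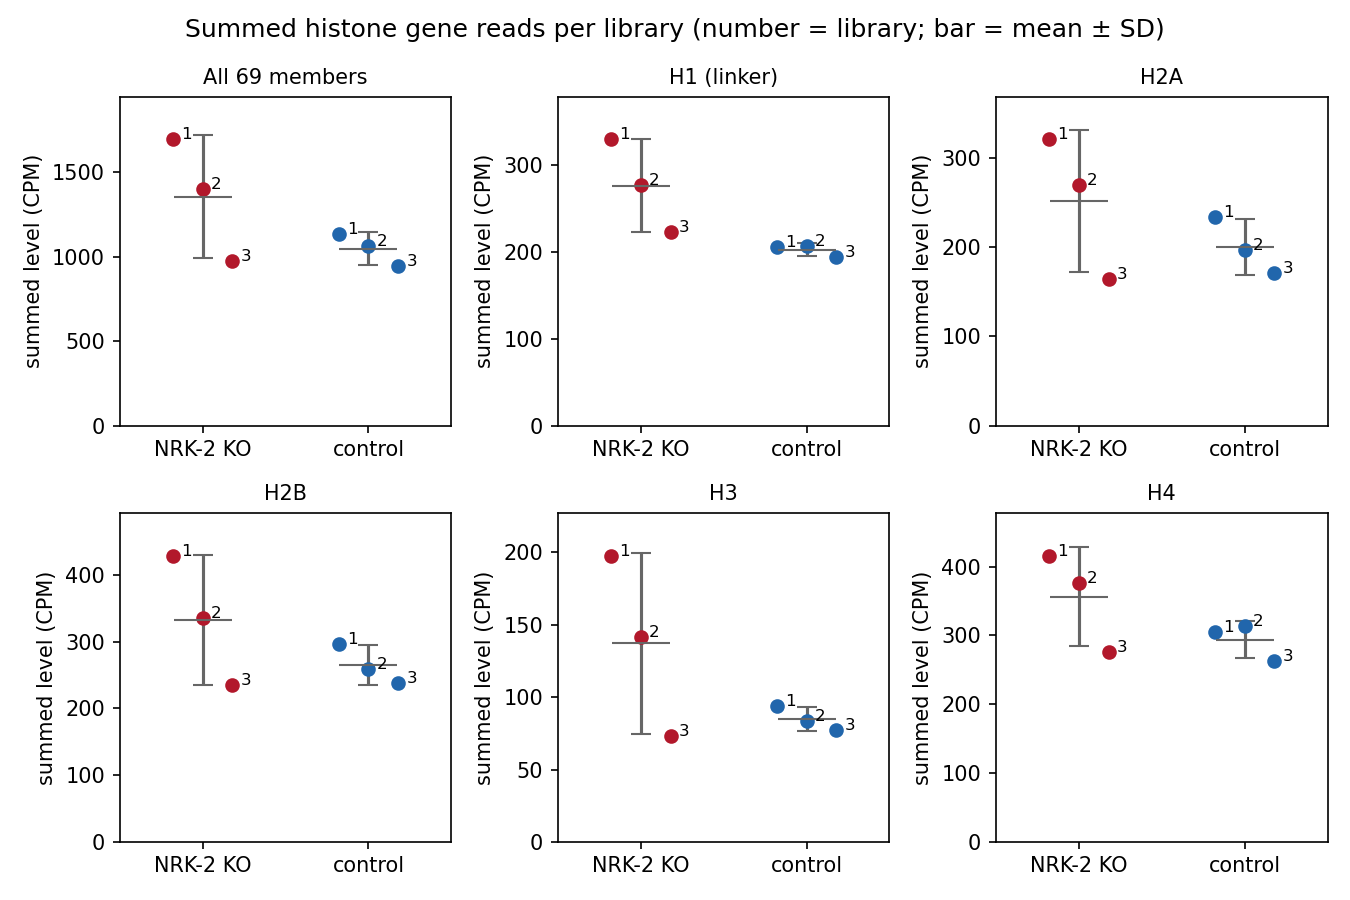
Summed level of histone genes in CPM (y axis, from 0) for each library of NRK-2 KO (red) and control (blue), for the whole family and each class, with the library number beside each point and the mean ± SD as a bar. In every panel KO 1 is highest and KO 2 is second, and KO 3 lies near the control libraries.

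All 5 classes had this order of the KO libraries. The H1 sum was 329, 277 and 222 CPM in KO 1 to 3, against 206, 207 and 194 CPM in control 1 to 3, and H1 was the class in which all KO libraries lay above all control libraries. The H3 sum was 198, 141 and 72.9 CPM in KO 1 to 3, against 93.7, 83.7 and 77.5 CPM in control 1 to 3. Relative to the control mean, H3 stood at 2.33 in KO 1, 1.66 in KO 2 and 0.858 in KO 3, and its log2 ratio of means, 0.69, was the highest of the 5 classes. The H2A sum was 320, 269 and 164 CPM in KO, against 233, 196 and 171 CPM in control libraries. The H2B sum was 429, 335 and 235 CPM in KO, against 297, 259 and 238 CPM in control libraries. In H2A, H2B and H3, KO 3 lay below every control library. The H4 sum was 416, 376 and 277 CPM in KO, against 304, 314 and 263 CPM in control libraries, with the lowest ratio of means of the 5 classes, 1.21. Without KO 1 the log2 ratios of the classes ran from 0.11 (H2B) to 0.33 (H3).

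By cluster, the large Hist1 cluster had the highest ratio of KO to control. Its sum was 1418, 1153 and 797 CPM in KO 1 to 3, against 902, 857 and 764 CPM in control 1 to 3, a ratio of means of 1.33. Hist2 stood at 238, 213 and 146 CPM in KO, against 201, 172 and 150 CPM in control libraries, a ratio of 1.14. Hist3 was at 22.6, 20.2 and 16.5 CPM in KO, against 21.3, 18.6 and 17.1 CPM in control libraries. Its value is mostly that of Hist3h2a. Hist4h4, the single gene of its cluster, was at 13.9, 11.1 and 11.4 CPM in KO, against 10.2, 12.0 and 11.7 CPM in control libraries. The genotypes overlapped in Hist4h4. Without KO 1 the log2 ratio of the sums was 0.21 for Hist1 (0.42 with all libraries), 0.04 for Hist2 (0.19), -0.05 for Hist3 (0.05) and -0.01 for Hist4h4 (0.10).

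Gene by gene, 0 of the 64 tested members rose and 1 fell at an adjusted p under 0.05 (edgeR, quasi-likelihood F test, p-values adjusted by Benjamini and Hochberg over all 14466 genes tested). Over all genes the test called 2.61% as risen and 1.09% as fallen. DESeq2 called 3 members as risen (Hist1h2ap, Hist1h4n and Hist2h2bb, where 7.16% of all genes were called as risen) and the same 1 as fallen (8.29%). At an unadjusted p under 0.05, edgeR gave 12 members a higher level (12.3% of all genes) and 1 a lower level (13.5%). The fitted level was higher in KO for 61 members (51.0% of all genes) and lower for 3 (49.0%), which were Hist2h2be, Hist1h4h and Hist2h3c1. The median log2 fold change was 0.54 over the 64 members and 0.01 over all genes tested. A change of at least 2-fold was fitted for 4 members (11.0% of all genes), namely Hist1h2an, Hist1h2ap, Hist2h3c2 and Hist2h2be.

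Most members shared an order of the libraries. KO 1 was the highest of the 6 libraries in 56 of the 64 members, where this held for 10.5% of all genes, and KO 3 was highest in 0 (11.4% of all genes). KO 1 and KO 2 both lay above all control libraries in 51 members (23.3% of all genes). KO 3 lay below both other KO libraries in 60 members (34.2% of all genes). It was within the control range in 30 (47.5%), below it in 27 (25.7%) and above it in 7 (26.8%). Relative to the control mean, the median member stood at 2.03 in KO 1, 1.50 in KO 2 and 0.871 in KO 3, against 1.11, 0.985 and 0.891 in control 1 to 3. The median over all genes lay from 0.978 to 1.02 in every library. Without KO 1 the median log2 fold change of the members was 0.23, with 55 of 64 fitted higher (51.8% of all genes) and 0 past the adjusted threshold (0.529% of all genes risen and 0.0679% fallen). Without KO 3 it was 0.82, with 63 fitted higher (49.8%), 45 at an unadjusted p under 0.05 (22.9%) and 0 past the adjusted threshold (0.0204% and 0.0%).

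**Figure D2:**
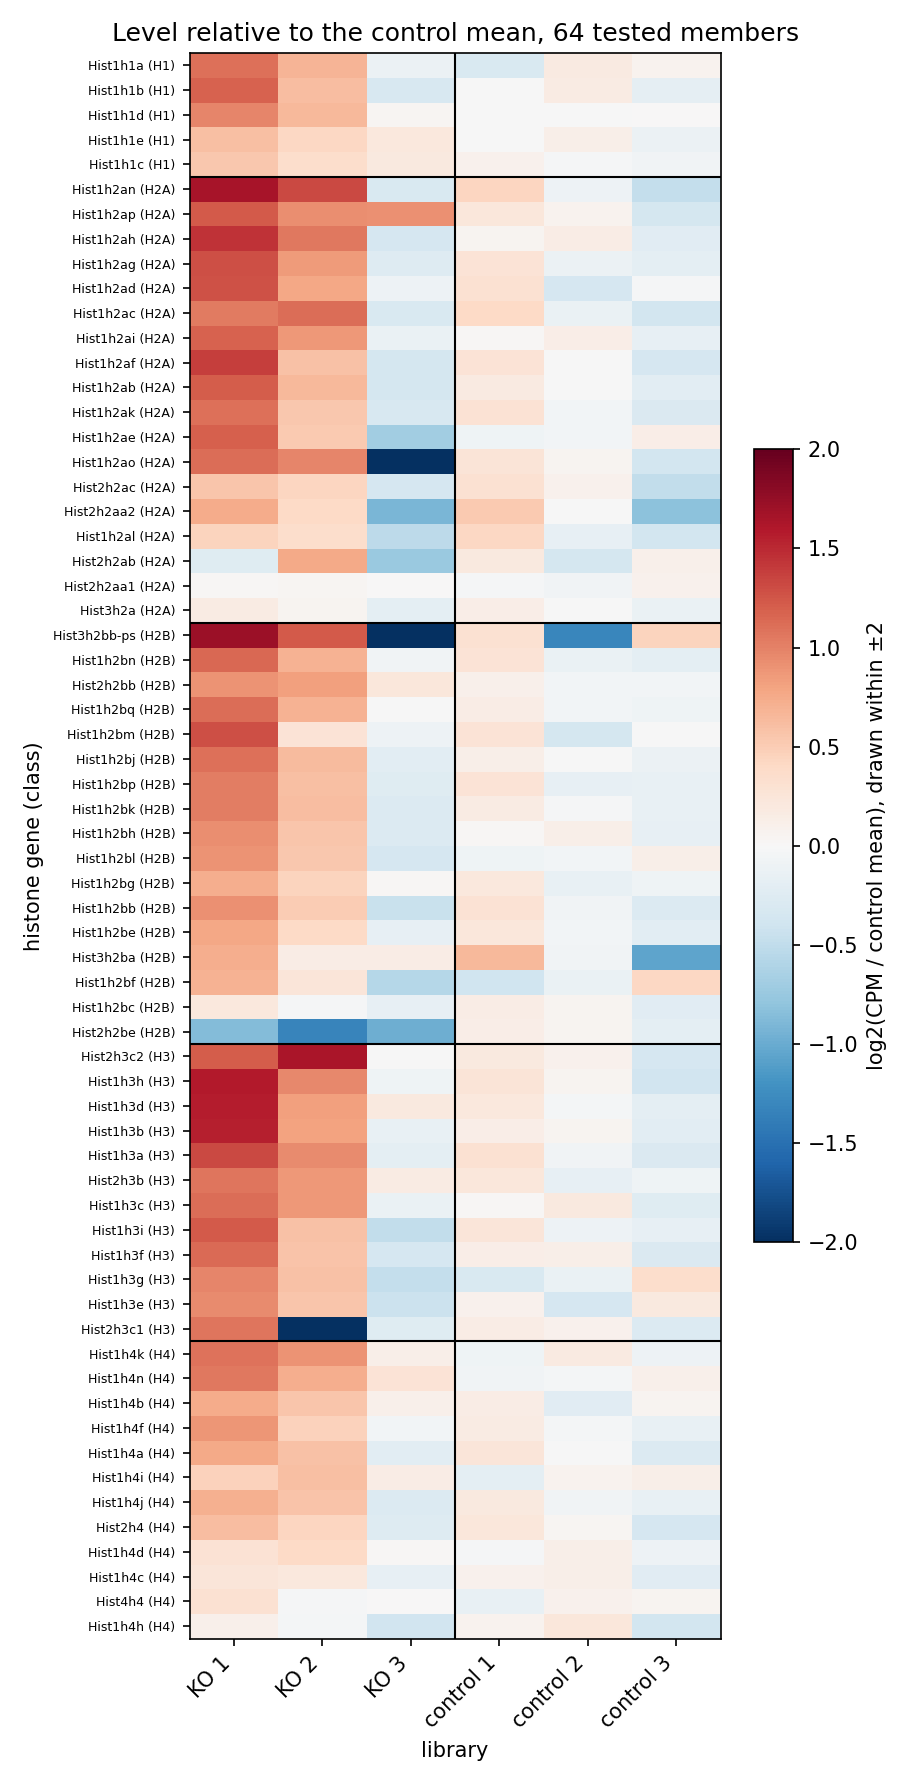
Level of each of the 64 tested histone genes (rows, by class and falling log2 fold change) in each library (columns), as log2 of CPM over the mean of the 3 control libraries, with values beyond ±2 drawn at ±2. The KO 1 and KO 2 columns are red in most rows, the KO 3 column is pale or blue in most, and Hist2h2be is blue in all 3 KO columns.

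The 7 members in which every KO library lay above every control library (16.4% of all genes) were Hist1h1c, Hist1h1d, Hist1h1e, Hist1h2ap, Hist1h4i, Hist1h4n and Hist2h2bb. Of these, 3 are linker histone genes. Hist1h1c, which encodes H1.2 and had the second highest mean level of the family per length (159 FPKM), was at 147, 129 and 117 CPM in KO 1 to 3, against 108, 99.8 and 97.1 CPM in control 1 to 3 (log2 fold change 0.37 ± 0.13 SE, edgeR adjusted p = 0.128). Hist1h1e, which encodes H1.4, was at 71.9, 63.3 and 54.7 CPM in KO, against 47.0, 51.1 and 43.7 CPM in control libraries (0.42, adjusted p = 0.116 by edgeR). Hist1h1d, which encodes H1.3, was at 58.5, 46.9 and 30.5 CPM in KO, against 29.6, 29.6 and 30.1 CPM in control libraries (0.61, adjusted p = 0.156 by edgeR). None of them passed the test, and for Hist1h1d the gap between KO 3 and the highest control library was small beside the spread of the KO libraries. The remaining somatic linker genes Hist1h1a and Hist1h1b, which encode H1.1 and H1.5, had log2 fold changes of 0.64 and 0.61 and KO 3 within or below the control range. Hist1h1c, Hist1h1e and Hist1h1d had log2 fold changes of 0.28, 0.32 and 0.38 without KO 1.

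The make-up of H1 reads also followed the library. Hist1h1c gave 44.6%, 46.8% and 52.5% of H1 reads in KO 1 to 3, against 52.3%, 48.2% and 50.1% in control 1 to 3. The means were 48.0 ± 4.10% in KO and 50.2 ± 2.08% in control (SD, n = 3 libraries each), which differed by less than the spread between libraries. Hist1h1b gave 8.34%, 6.73% and 4.37% in KO, against 5.86%, 6.60% and 5.53% in control libraries. KO 1 thus had the lowest share of Hist1h1c and the highest of Hist1h1b, and KO 3 the reverse.

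Among H2A genes 2 had fitted changes above 1 on the log2 scale. Hist1h2an, with a mean of 6.48 FPKM, was at 5.84, 4.65 and 1.50 CPM in KO 1 to 3, against 2.50, 1.73 and 1.34 CPM in control 1 to 3 (log2 fold change 1.10 ± 0.55 SE, edgeR adjusted p = 0.257). Its KO 3 value lay inside the control range. Hist1h2ap, with 15.5 FPKM, was at 10.9, 8.90 and 8.76 CPM in KO, against 5.45, 4.87 and 3.65 CPM in control libraries (1.03 ± 0.23 SE, edgeR adjusted p = 0.0629), the lowest adjusted p of any member with a higher fitted level. Its reads cannot be separated from those of Hist1h2ao, since both symbols are placed at the same loci. Hist1h2ao was at 11.5, 10.5 and 0.146 CPM in KO, against 6.33, 5.49 and 4.10 CPM in control libraries. With both merged the sum was 22.4, 19.4 and 8.91 CPM in KO, against 11.8, 10.4 and 7.75 CPM in control libraries (0.76, adjusted p = 0.228 by edgeR), and KO 3 then lay inside the control range. The separation of the genotypes in Hist1h2ap was thus not seen in the merged sum. Hist1h2an and Hist1h2ap had log2 fold changes of 0.73 and 0.92 without KO 1.

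The 4 H2A genes with the highest FPKM had fitted changes from 0.02 to 0.27 on the log2 scale, none past the test. Hist2h2aa1 was at 61.1, 61.6 and 60.6 CPM in KO, against 58.7, 57.3 and 64.0 CPM in control libraries (log2 fold change 0.03, adjusted p = 0.895 by edgeR). It too shares its loci, with Hist2h2aa2, which was at 66.9, 53.0 and 21.3 CPM in KO, against 57.2, 39.9 and 22.7 CPM in control libraries (0.24, adjusted p = 0.789 by edgeR). Merged, the pair stood at 128, 115 and 81.9 CPM in KO, against 116, 97.2 and 86.7 CPM in control libraries (0.11, adjusted p = 0.753 by edgeR). Hist2h2ac was at 24.6, 22.5 and 13.3 CPM in KO, against 20.6, 17.7 and 11.8 CPM in control libraries (0.27, adjusted p = 0.607 by edgeR). Hist3h2a was at 20.1, 18.5 and 15.7 CPM in KO, against 19.7, 17.8 and 16.3 CPM in control libraries (0.02, adjusted p = 0.959 by edgeR). Each of these has KO and control libraries that overlap.

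The single member past the test was an H2B gene. Hist2h2be, whose protein H2BE was first studied as an H2B variant of mouse olfactory neurons, fell to 8.63, 6.30 and 7.96 CPM in KO 1 to 3, against 17.2, 16.2 and 13.7 CPM in control 1 to 3. All KO libraries lay below all control libraries, which held for this member alone among the 64 (14.5% of all genes). The means were 7.63 ± 1.20 CPM in KO and 15.7 ± 1.81 CPM in control (SD, n = 3 libraries each; log2 fold change -1.04 ± 0.19 SE, edgeR adjusted p = 0.0405). Its deposited transcript is 2667 bases long and lies at chr3:96221072-96223738, and with 4.23 FPKM as a mean over all libraries it is one of the weaker members per length. The histone stem-loop letters were not found in its GENCODE transcript. Without KO 1 the log2 fold change was -1.14, but the call was lost there (adjusted p = 0.102) and in each fit that left out another library except control 3, with adjusted p from 0.0177 without control 3 to 0.169 without control 2.

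The 17 tested H2B genes, Hist2h2be among them, had a median log2 fold change of 0.49. Hist2h2bb was at 35.4, 33.5 and 22.3 CPM in KO, against 20.5, 18.4 and 18.3 CPM in control libraries (log2 fold change 0.67, adjusted p = 0.0923 by edgeR). Its groups did not overlap. Hist1h2bc, the most abundant H2B gene, was at 92.6, 78.9 and 71.8 CPM in KO, against 89.2, 83.4 and 68.6 CPM in control libraries (0.01, adjusted p = 0.969 by edgeR). The table holds 2 transcripts of it, which differed. The short model of 469 bases was at 12.4, 11.1 and 5.88 CPM in KO 1 to 3, against 7.11, 5.97 and 4.22 CPM in control 1 to 3. The longer model of 728 bases, which spans chr13:23684199-23692480 and took most reads, was at 80.2, 67.8 and 65.9 CPM in KO, against 82.1, 77.4 and 64.3 CPM in control libraries. The sources used here do not say how reads shared by the models were divided, so these transcript values are less certain than the gene sum.

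H2A and H2B genes often lie head to head around a shared promoter. Of the members, 10 such pairs had starts 164 to 281 bases apart, with a median of 204.5 bases, and both partners were tested in 8. The partners' log2 fold changes differed by a median of 0.24. Hist1h2an and Hist1h2bp had 1.10 and 0.55, Hist1h2ag and Hist1h2bj 0.76 and 0.60, and Hist1h2ak and Hist1h2bn 0.56 and 0.68. The H2A partner had the larger value in 6 of 8 pairs. Hist1h2ao and Hist1h2bq (0.47 and 0.67) are among the pairs with the larger H2B value. Reads of Hist1h2ao cannot be separated from those of Hist1h2ap, and merged they had 0.76, so this count and the median difference are uncertain.

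The H3 genes had the highest median log2 fold change of the classes, 0.73 over 12 tested members, and 0 of them passed the test. Hist1h3f, the H3 gene with the most reads, was at 31.0, 21.0 and 11.2 CPM in KO 1 to 3, against 15.6, 15.4 and 11.6 CPM in control 1 to 3 (log2 fold change 0.57 ± 0.35 SE, edgeR adjusted p = 0.352). KO 3 lay below every control library, and without KO 1 the log2 fold change was 0.18. Hist1h3b was at 22.1, 13.2 and 6.76 CPM in KO, against 8.24, 7.81 and 6.49 CPM in control libraries (0.90, adjusted p = 0.219 by edgeR). KO 3 lay inside the control range, far from KO 1, and without KO 1 the log2 fold change was 0.41. Hist2h3c2 and Hist2h3c1 are a further pair of symbols at shared loci. Hist2h3c2 was at 9.74, 13.1 and 4.16 CPM in KO, against 4.81, 4.48 and 3.33 CPM in control libraries (1.10, adjusted p = 0.163 by edgeR). Hist2h3c1 was at 7.32, 0.056 and 2.96 CPM in KO, against 3.88, 3.71 and 2.88 CPM in control libraries (-0.02, adjusted p = 0.994 by edgeR). The high KO 2 value of the one faces a value near 0 of the other. Merged, they stood at 17.1, 13.2 and 7.12 CPM in KO, against 8.68, 8.19 and 6.21 CPM in control libraries (0.69, adjusted p = 0.242 by edgeR).

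Among H4 genes, which all encode the same core histone, the members above 100 FPKM had fitted changes from -0.09 to 0.72 on the log2 scale. Hist1h4n was at 73.5, 58.4 and 42.9 CPM in KO 1 to 3, against 33.8, 34.4 and 38.0 CPM in control 1 to 3 (log2 fold change 0.72 ± 0.20 SE, edgeR adjusted p = 0.0905). All KO libraries lay above all control libraries. It shares its locus with Hist1h4m, whose 5 reads do not change this value (0.72 and adjusted p = 0.0905 merged), and without KO 1 it was 0.52. Hist1h4h, the member with the highest FPKM, was at 82.4, 74.4 and 58.9 CPM in KO, against 80.7, 89.7 and 59.3 CPM in control libraries (-0.09, adjusted p = 0.807 by edgeR). Hist1h4d was at 58.6, 63.4 and 49.0 CPM in KO, against 47.3, 52.4 and 44.7 CPM in control libraries (0.24, adjusted p = 0.301 by edgeR). Hist1h4c was at 54.5, 53.2 and 41.0 CPM in KO, against 48.7, 49.7 and 39.4 CPM in control libraries (0.11, adjusted p = 0.697 by edgeR). In these 3 the genotypes overlapped. Hist4h4 had a log2 fold change of 0.10 (adjusted p = 0.749 by edgeR).

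The members with the most reads had a lower median fitted change than the rest. The 8 with the highest CPM, a rank by reads and not by length-scaled level, which hold 44.0% of all member reads, had a median log2 fold change of 0.18, against 0.56 for the other 56 tested members. Ranked by FPKM, with 7 of the 8 shared, the medians were 0.17 and 0.56. Their sum was 642, 583 and 496 CPM in KO 1 to 3, against 513, 518 and 455 CPM in control 1 to 3, a ratio of means of 1.16. The sum of the other 61 members was 1051, 815 and 475 CPM in KO, against 621, 542 and 488 CPM in control libraries, a ratio of 1.42. In that sum KO 3 was the lowest of all 6 libraries. Members in which the stem-loop letters were found had a median of 0.47 (42 tested), and those in which they were not found had 0.65 (22 tested). The second group is not shown to lack the stem-loop, since the transcript models searched may stop short of it.

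**Figure D3:**
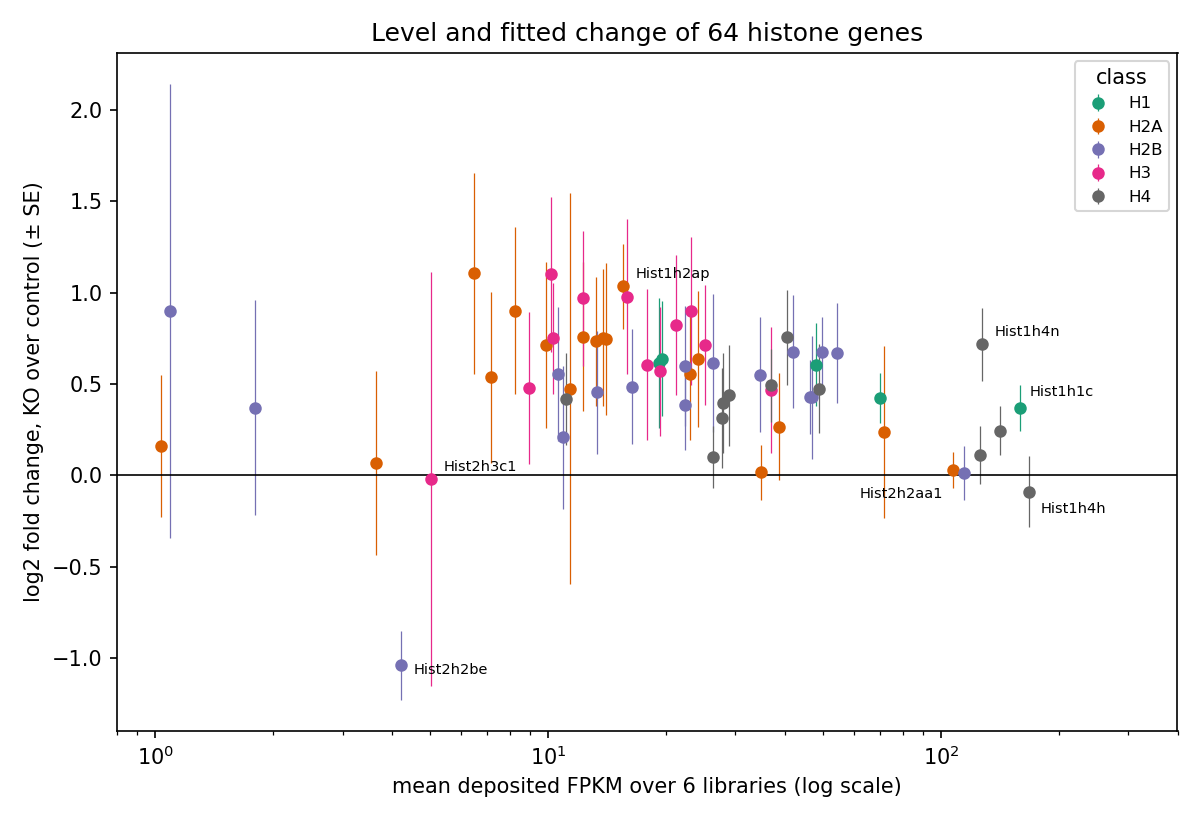
Log2 fold change of KO over control with its SE (y axis) against the mean deposited FPKM over the 6 libraries (x axis, log scale) for the 64 tested histone genes, coloured by class. Most points lie between 0 and 1, the genes above 100 FPKM other than Hist1h4n lie below 0.5, and Hist2h2be stands apart at -1.04.

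Genes of histone supply, of the cell cycle and of small RNAs were read from 6 lists, none of which had a member past the test. Replication-independent histone genes, whose products replace histones at any time of the cell cycle, had a summed level of 828, 826 and 762 CPM in KO 1 to 3, against 758, 762 and 746 CPM in control 1 to 3. Of 11 tested, 8 had a higher fitted level (51.0% of all genes) and the median log2 fold change was 0.18. KO 1 and KO 2 both lay above all control libraries in 6 of the 11 (23.3% of all genes). KO 3 lay below both other KO libraries in 5 (34.2% of all genes). The sum thus does not stand for each gene of the list. The 2 most abundant were the H3.3 genes. H3f3a was at 241, 224 and 229 CPM in KO, against 240, 272 and 264 CPM in control libraries (-0.16, adjusted p = 0.434 by edgeR). H3f3b was at 225, 249 and 221 CPM in KO, against 174, 176 and 183 CPM in control libraries (0.38, adjusted p = 0.0985 by edgeR). KO 3 was about as high as KO 1 in H3f3b, and all KO libraries lay above all control libraries, a different order from that of the clustered H3 genes.

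Genes that process histone mRNA or carry histones had sums that lay close together in all libraries. The 20 processing genes had a summed level of 727, 720 and 726 CPM in KO, against 771, 764 and 717 CPM in control libraries. Their median log2 fold change was 0.00, with 10 of 20 fitted higher (51.0% of all genes). KO 1 and KO 2 both lay above all control libraries in 4 of them (23.3% of all genes). KO 3 lay below both other KO libraries in 10 (34.2% of all genes). Slbp, the stem-loop binding protein, was at 30.0, 28.2 and 24.0 CPM in KO, against 29.9, 24.8 and 24.9 CPM in control libraries (0.05, adjusted p = 0.87 by edgeR). Npat, the coactivator of histone gene transcription, was at 34.0, 36.4 and 33.9 CPM in KO, against 28.7, 29.3 and 35.9 CPM in control libraries (0.15, adjusted p = 0.498 by edgeR). The scaffold gene Sympk was at 93.2, 82.5 and 102 CPM in KO, against 120, 115 and 93.5 CPM in control libraries (-0.24, adjusted p = 0.333 by edgeR), and overlapped between genotypes. The helicase gene Upf1 was at 68.2, 76.7 and 75.3 CPM in KO, against 75.7, 78.7 and 70.4 CPM in control libraries (-0.03, adjusted p = 0.891 by edgeR). The 20 histone chaperone genes had sums from 1150 to 1171 CPM in KO and from 1140 to 1185 CPM in control libraries. Their median log2 fold change was 0.14, with 15 fitted higher (51.0% of all genes). In 10 of these 20, KO 1 and KO 2 both lay above all control libraries (23.3% of all genes). In 11 of them KO 3 lay below both other KO libraries (34.2% of all genes). The chaperone sum thus does not stand for each gene of the list. Within that list Chaf1a, a subunit of the complex that loads new histones behind the replication fork, was at 8.77, 5.99 and 4.02 CPM in KO, against 4.02, 3.66 and 3.77 CPM in control libraries (0.71, adjusted p = 0.221 by edgeR). KO 1 and KO 2 lay above the control range and KO 3 inside it, and without KO 1 the log2 fold change was 0.39. The chromatin remodeller gene Atrx was at 185, 201 and 209 CPM in KO, against 169, 178 and 217 CPM in control libraries (0.08, adjusted p = 0.772 by edgeR). The chaperone gene Rbbp7 was at 141, 124 and 138 CPM in KO, against 192, 181 and 134 CPM in control libraries (-0.33, adjusted p = 0.255 by edgeR). Both overlapped between genotypes.

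Cell cycle genes were, like the histone genes, highest in KO 1 and second in KO 2 as sums, and their KO 3 sums were the lowest of all 6 libraries. The 29 S phase genes summed to 545, 476 and 332 CPM in KO 1 to 3, against 385, 354 and 377 CPM in control 1 to 3. Of them 25 had a higher fitted level (51.0% of all genes), with a median log2 fold change of 0.24. KO 1 and KO 2 both lay above all control libraries in 19 (23.3% of all genes). The 20 mitosis genes summed to 699, 482 and 218 CPM in KO, against 315, 249 and 275 CPM in control libraries. All 20 were fitted higher (51.0% of all genes), with a median of 0.74. Relative to the control mean they stood at 2.50 in KO 1, 1.72 in KO 2 and 0.780 in KO 3, beside 1.62, 1.34 and 0.928 for the histone family and 1.47, 1.28 and 0.893 for S phase genes. KO 3 was below both other KO libraries in 25 of 29 S phase and 19 of 20 mitosis genes (34.2% of all genes). Leaving out KO 1, the median log2 fold change was 0.11 for S phase genes and 0.35 for mitosis genes. In that fit 19 of 29 S phase and 17 of 20 mitosis genes were fitted higher (51.8% of all genes).

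Single genes of the cycle followed this order in part. Mki67, the proliferation marker Ki-67, was at 182, 130 and 57.3 CPM in KO, against 81.7, 63.4 and 79.9 CPM in control libraries (log2 fold change 0.71, adjusted p = 0.289 by edgeR). Top2a, the topoisomerase of dividing cells, was at 117, 84.6 and 37.0 CPM in KO, against 48.0, 42.6 and 46.4 CPM in control libraries (0.80, adjusted p = 0.231 by edgeR). In both, KO 3 lay below every control library, and without KO 1 the log2 fold changes were 0.32 for Mki67 and 0.41 for Top2a. Pcna, the sliding clamp of DNA polymerase, was at 59.0, 49.9 and 44.3 CPM in KO, against 53.7, 51.6 and 48.6 CPM in control libraries (-0.01, adjusted p = 0.983 by edgeR). Rrm1, a subunit of ribonucleotide reductase, was at 60.7, 55.4 and 36.3 CPM in KO, against 39.0, 41.9 and 45.4 CPM in control libraries (0.27, adjusted p = 0.433 by edgeR). Tyms, thymidylate synthase, was at 15.7, 15.5 and 10.9 CPM in KO, against 6.87, 6.21 and 8.24 CPM in control libraries, with all KO libraries above all control libraries (0.98, adjusted p = 0.0602 by edgeR). The part of the number of cycling cells in the histone values was not tested.

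**Figure D4:**
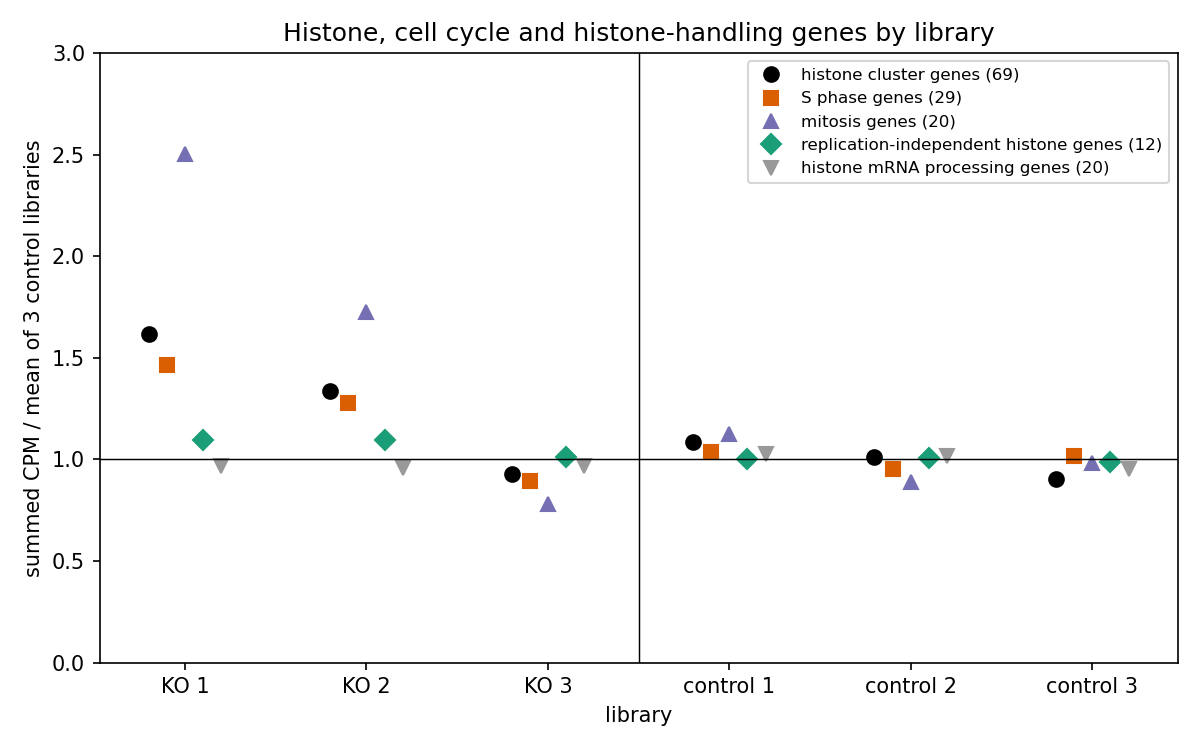
Summed CPM of each gene list divided by the mean of the 3 control libraries (y axis, from 0), for each library (x axis, KO left of control). Histone cluster, S phase and mitosis genes are high in KO 1, less high in KO 2 and below 1 in KO 3, while replication-independent histone and histone mRNA processing genes stay between 0.95 and 1.10 in all 6 libraries.

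Other RNAs without a poly(A) tail, which a total RNA library also keeps, stand beside the histone genes for comparison. Of 15 small RNAs listed 10 were in the table and 3 were tested. Rpph1, the RNA of RNase P, was at 3291, 4186 and 3118 CPM in KO, against 2704, 3422 and 2783 CPM in control libraries (log2 fold change 0.25, adjusted p = 0.5 by edgeR). Rmrp, the RNA of RNase MRP, was at 919, 1262 and 1003 CPM in KO, against 935, 884 and 753 CPM in control libraries (0.31, adjusted p = 0.335 by edgeR). Both were highest in KO 2 and not in KO 1, unlike the histone genes.

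Markers of cell types differed between the libraries as well, and their part in the histone values was not tested. All 8 fibroblast markers had a higher fitted level in KO (51.0% of all genes). Their sums ran from 28657 to 39767 CPM in KO and from 6547 to 18025 CPM in control libraries. Of these 1 rose (2.61% of all genes), the matrix protein gene Postn. It was at 4473, 5165 and 5853 CPM in KO, against 362, 1254 and 543 CPM in control libraries (log2 fold change 2.84, adjusted p = 0.0338 by edgeR). Without KO 1 its log2 fold change was 2.94 and the call was lost (adjusted p = 0.0995 by edgeR). All 8 cardiomyocyte markers had a lower fitted level (49.0% of all genes), with 0 past the test (1.09% of all genes fallen). The 8 macrophage markers summed to 1027 to 1340 CPM in KO and 495 to 1256 CPM in control libraries. Of these, 6 had a higher fitted level (51.0% of all genes). The 2 with a lower one were Cd163 and Mrc1 (log2 fold changes -1.17 and -0.0028). The 7 endothelial markers summed to 1138 to 1437 CPM in KO and 1116 to 1474 CPM in control libraries, with 4 fitted higher and 3 lower. The 6 erythroid markers summed to 831, 218 and 132 CPM in KO 1 to 3, against 489, 688 and 263 CPM in control 1 to 3. B cell markers (5 of 6 in the table) summed to 4.75 to 42.3 CPM in KO and 2.79 to 219 CPM in control libraries, the highest being control 3. T cell markers reached 15.0 CPM in KO and 13.8 CPM in control libraries, and neutrophil markers 51.3 CPM in KO and 88.1 CPM in control libraries. Atrial markers summed to 2357 to 3025 CPM in KO and 110 to 929 CPM in control libraries, most of it Nppa, the atrial natriuretic peptide gene, at 2419, 2350 and 3022 CPM in KO 1 to 3, against 442, 572 and 108 CPM in control 1 to 3. The other 3 tested atrial markers had lower fitted levels in KO, and Myl7, an atrial myosin light chain gene, had 3672, 41 and 6 reads in KO 1 to 3, against 4170, 3365 and 0 reads in control 1 to 3. Adipocyte markers summed to 2.30 to 428 CPM in KO and 57.4 to 903 CPM in control libraries. No marker of these lists was at 0 in all libraries other than 1 atrial marker, Bmp10. The fibroblast sum of KO 3 was 28657 CPM, above all control libraries, and its part in the histone values was not tested.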

How the data were processed

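RNA of remote left ventricle from NRK-2 KO and control mice was made into stranded libraries (TruSeq Stranded Total RNA), per the labels' protocols. The submitters' processing notes name HISAT2, Bowtie2 and mm10 but no version or role, and the sources used here do not state the counting program, annotation or strand setting. The authors deposited whole-number read counts and FPKM values for 36780 transcripts in 6 libraries. Counts were summed per symbol (24542 symbols, 86 rows for the 69 members) and tested in edgeR 4.0.16 (R 4.3.3; TMM, filterByExpr, quasi-likelihood test, adjusted p under 0.05, no covariate). The deposited FPKM served only for levels between genes and for limma 3.58.1 on log2(FPKM + 1); DESeq2 1.42.0 was a further alternative. Sums over members got no test. The members, gene lists and marker lists were chosen with earlier results of these data known. Values in every library are given for the 8 members with the highest mean CPM, those past the test, the 3 highest and 3 lowest fitted changes, and the most abundant of each class and cluster, and for the 2 most abundant genes of each list and up to 4 past the test. Other genes named (Hist1h1a, Hist1h1b, Hist1h1d, Hist1h2ao, Hist1h3b, Hist2h2aa2, Hist2h2ac, Hist2h2bb, Slbp, Npat, Chaf1a, Tyms, Nppa, Myl7, Cd163, Mrc1 and the promoter and pair examples) were chosen after their values were seen. On simulated counts the test called 41 of 100 genes changed 2-fold and 97 of 100 changed 4-fold. It also called 7 of 14266 unchanged genes. The changed genes were drawn from the more abundant ones, so weaker members are not covered.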

Additional observations from a re-analysis of the deposited data

How the results depend on the processing

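The family, class and cluster sums kept their log2 ratio within 1 SD of the value reported under other scalings and with the deposited FPKM. This also held without each library in turn. It held too without the most abundant member, except in the Hist3 cluster, where that value was 0.56 (0.05 with all members). The SD is the spread between libraries within genotypes. For the family and for Hist2 it was 0.30, beside ratios of 0.37 and 0.19, so staying within it does not show a stable sum. Leaving out KO 1 took the family ratio to 0.18 and Hist2 to 0.04, and turned Hist3 (-0.05) and Hist4h4 (-0.01) negative. Members called as risen, 0 in the fit reported, were 1 with library totals alone, 3 with DESeq2, 1 with limma and 0 to 2 without 1 library (2 without control 3: Hist1h2ap and Hist1h4n). Members called as fallen, 1 in the fit reported, were 0 with the library number as a replicate block (Hist2h2be, adjusted p = 0.152) and 0 to 1 without 1 library. Over all genes, 535 calls in the fit reported became 6 with the block, 2318 with DESeq2, 864 with limma and 3 (without KO 3) to 3628 (without control 3) when 1 library was left out. Libraries with the same number had deviations from their genotype mean that correlated at 0.31, -0.33 and -0.35. Whether the numbers pair the libraries is not stated. These correlations cannot settle it, since deviations from a mean of 3 libraries depend on each other. Library totals alone moved the median log2 fold change of all genes from 0.01 to 0.11 and that of the members from 0.54 to 0.64.

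Single members near 0 changed direction with other settings, none of them past the test. Hist1h2bc was at -0.0069 with RLE scaling, -0.0019 with DESeq2 and -0.0932 to 0.0950 without 1 library. Hist1h4h was at 0.0306 with library totals alone, 0.0196 with limma and -0.2441 to 0.0390 without 1 library. Hist2h3c1 was at 0.0648 with library totals alone, 0.6949 merged with Hist2h3c2 (an alternative chosen after seeing the data) and -1.2186 to 0.5604 without 1 library. Hist3h2a was at -0.0037 with RLE scaling and -0.0662 to 0.1005 without 1 library, Hist2h2aa1 at -0.0056 to 0.0757 and Hist4h4 at -0.0116 to 0.1609 without 1 library. The cause was not tested. A member that missed the threshold is not shown to be unchanged, and symbols at shared loci limit single-gene values more than sums.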
